A study of Homo sapiens with 4 samples.

Results

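The 10 genes described here code for S100 proteins: S100B, S100A1, S100A2, S100A3, S100A4, S100A6, S100A10, S100A11, S100A13 and S100A16. They were taken by gene name from a table of 18175 genes and loci, and all 10 were among the 13501 genes tested. RNA sequencing was done on A375 and SK-MEL-28, established human melanoma cell lines grown in the same serum-containing medium. Each line was treated either with siNC, by its name a control siRNA, or with siLINC01291, named for the long non-coding RNA it targets, LINC01291. The 4 groups hold 1 library each, so the siRNA effect is replicated only across the lines, and the line difference only across the siRNA arms. The treatment label also names EL, which it does not explain. LINC01291 itself was at 6.39 FPKM with siNC and 2.28 with siLINC01291 in A375, and at 8.11 and 3.69 in SK-MEL-28. FPKM are counts scaled by gene length and library total.

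S100 proteins are small calcium sensors of vertebrates, built around paired EF-hand loops, and most work as dimers that bind other proteins when calcium rises. Inside cells they act on annexins, myosin, p53 and other partners, and some are also secreted and signal through the receptor AGER (RAGE). S100 staining is a classic marker of melanocytic tumours, and S100B in blood is followed in patients with melanoma. Their genes mostly lie in a cluster on chromosome 1 beside genes of the skin barrier, whereas S100B lies apart on chromosome 21.

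The libraries held between 29351240 and 31815336 counts, with 11791 to 12838 genes at an FPKM of at least 1. The 10 S100 genes took 0.171 and 0.190% of the counts in A375 (siNC and siLINC01291) and 0.0630 and 0.0632% in SK-MEL-28. Of the 6 melanocyte markers examined, SOX10 was well above 1 FPKM in all libraries (80.1 to 146.5). PMEL, MLANA, TYR and DCT were between 0.0846 and 2.13 FPKM in A375 and between 77.6 and 1043 in SK-MEL-28, so A375 nearly lacked these defining pigment cell transcripts. Of the markers of other cell types, KRT5, KRT1, TP63, COL1A1, COL1A2, COL3A1, DCN, PTPRC, CD3E, CD14, PECAM1, VWF and CDH5 were not among the listed genes. Of the keratinocyte markers, KRT10 was at 27.1 and 27.7 FPKM in A375 and at 18.0 and 19.9 in SK-MEL-28, and KRT14 at 6.16 and 7.32 against 0.0451 and 0.0151. LYZ, a myeloid marker, was at 1.57 and 1.94 against 0.0787 and 0.118, and LUM, a fibroblast marker, at 3.25 and 3.74 against 7.84 and 8.07.

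In the GENCODE 29 annotation of GRCh38, 9 of the genes lie on chromosome 1 between 151982915 and 153632039, a span of 1649125 bases. S100A10 (151982915 to 151994390) and S100A11 (152032506 to 152047907) form 1 end. A gap of 1486691 bases follows, which holds genes of the epidermal barrier. Then come S100A6 (153534599 to 153536244), S100A4 (153543613 to 153550136), S100A3 (153547329 to 153549372), S100A2 (153561108 to 153567890), S100A16 (153606886 to 153613145), S100A13 (153618787 to 153631360) and S100A1 (153627926 to 153632039). All are on the minus strand except S100A1. S100B is on the minus strand of chromosome 21 (46598962 to 46605208). The annotated coding sequences are short, from 90 codons in S100A6 to 105 in S100A11 among the genes with a single coding length. S100A3 lies within the span of S100A4, but their annotated exons share 0 bases. S100A1 and S100A13 share 28 exonic bases on opposite strands. S100A13 also shares 318 exonic bases (34.7% of its own) with AL162258.1 on its strand, and S100A1 shares 169 (16.9%) with the antisense gene AL162258.2; neither of these is a listed gene. The labels say nothing of strand in the counting, which leaves reads from these overlaps, and so the values of S100A1 and S100A13, uncertain. The lengths the authors used for S100A1 (3030 bases) and S100A13 (2216) were also far above their exonic lengths in GENCODE 29 (1003 and 917), so the FPKM of these genes depend on an annotation that differs from this one.

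Levels of several S100 genes differed strongly between the lines. S100A6, S100A4, S100A16, S100A2 and S100A3 were at least 10-fold lower in SK-MEL-28 than in A375, and S100B was 24.1-fold higher. S100A10 was 2.36-fold lower and S100A1 2.16-fold higher, whereas S100A11 and S100A13 did not differ by the test. The comparison of the lines was tested with edgeR's quasi-likelihood test, with the siRNA as the other factor and Benjamini-Hochberg adjustment over all genes. Of the 10 genes, 6 were called lower in SK-MEL-28 (36.3% of all genes tested were) and 2 higher (36.1%). At least 10-fold and called lower were 5 of the 10 genes (5.95% of all genes), and 1 was called and at least 10-fold higher (4.27%). The median log2 difference of the 10 genes was -2.51, against -0.02 over all genes, and the median absolute difference was 3.90, against 0.68. S100A2 and S100A3 reached the 1 FPKM needed for testing only in A375 and S100A1 only in SK-MEL-28, so these had to differ and the counts and medians are a description. On the log2(FPKM + 1) scale with limma, which understates differences of low genes, the log2 difference was -2.95 for S100A3, which is under 10-fold, -3.61 for S100A2 and 0.46 for S100A1. The keratinocyte summed FPKM (KRT10 and KRT14) was also lower in SK-MEL-28 (18.0 and 19.9) than in A375 (33.3 and 35.0), and its part in the S100 differences was not tested. The 2 libraries of a line differ in siRNA, and nothing in the labels says that they came from separate cultures, so the p-values measure only the spread between these libraries, which may be technical. Scaling by library totals alone instead of TMM moved the median of all genes by -0.17, and the calls for the 10 genes were the same in number. In bulk libraries, fewer cells expressing a gene and less RNA per cell cannot be told apart.

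**Figure D1:**
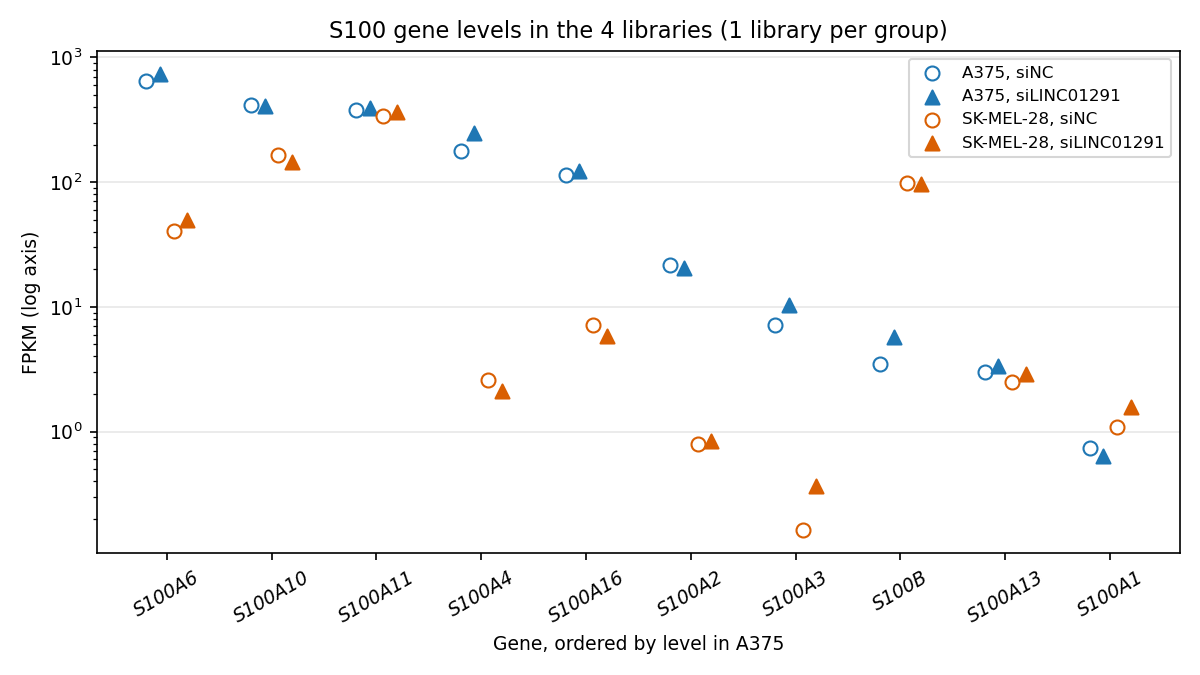
FPKM (vertical log axis) of the 10 S100 genes, ordered by their level in A375; each point is 1 library, colours stand for the line, and circles and triangles for siNC and siLINC01291. S100A6, S100A4, S100A16, S100A2 and S100A3 stand at least 10-fold lower in SK-MEL-28, S100B stands 24.1-fold higher, and S100A11 lies between 338 and 395 FPKM in all libraries.

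S100B, the S100 protein followed as a melanoma serum marker and a known binder of p53, was at 3.47 FPKM in A375 siNC, 5.69 in A375 siLINC01291, 97.7 in SK-MEL-28 siNC and 96.2 in SK-MEL-28 siLINC01291. Both SK-MEL-28 libraries lay far above both A375 libraries. The log2 difference between the lines was 4.59 (SE 0.19, edgeR adjusted p = 3.84e-06). Among all genes, S100B ranked 307 and 313 by FPKM in the SK-MEL-28 libraries, and 8388 and 6751 in those of A375. The melanocyte markers were also higher in SK-MEL-28, with a summed FPKM of 88.8 and 127 in A375 and of 1518 and 1839 in SK-MEL-28. SOX10 made up most of the A375 sum (80.1 and 118) and differed much less between the lines (126.7 and 146.5 in SK-MEL-28). PMEL made up most of the SK-MEL-28 sum (804 and 1043). The part of these markers in the level of S100B was not tested. Of 4526 genes with a mean FPKM of at least 10, those nearest to S100B in centred log2(FPKM + 1) over the 4 libraries were SPON2, MIR3142HG and QPRT, at distances of 0.23, 0.27 and 0.31. SPON2, which codes for a secreted matrix protein, was at 0.987, 1.89, 38.2 and 47.3 FPKM in the same order of libraries. With 4 libraries, this likeness mainly reflects the difference between the lines.

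S100A1, the family member best known from heart muscle, was the other gene called higher in SK-MEL-28. It was the lowest of the 10 genes in A375, at 0.735 FPKM with siNC and 0.641 with siLINC01291, and stood at 1.10 and 1.58 in SK-MEL-28. It reached the 1 FPKM needed for testing only in SK-MEL-28, so it was tested only through the line where it is high. Its counts were few (69, 62, 98 and 141). The log2 difference was 1.11 (SE 0.23, edgeR adjusted p = 0.00520); DESeq2 gave 1.11 with an adjusted p of 0.0803 and did not call it, and the adjusted p lay between 0.00195 and 0.0803 over the settings tried.

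S100A4, which binds non-muscle myosin and is known for its part in tumour cell motility, differed most between the lines. It was at 177.9 FPKM in A375 siNC and 246 in A375 siLINC01291, and at 2.58 and 2.12 in the SK-MEL-28 libraries. In A375 it ranked 152 and 96 among all genes, and in SK-MEL-28 9083 and 9807. The log2 difference of -6.31 (SE 0.19, edgeR adjusted p = 1.40e-06) is a 79.4-fold lower level in SK-MEL-28. The genes nearest to S100A4 by the same distance were the hair keratin KRT81 (0.45), the ephrin receptor EPHA2 (0.48) and the receptor tyrosine kinase AXL (0.49). AXL was at 125.5 and 119 FPKM in A375 and at 0.667 and 0.516 in SK-MEL-28.

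S100A6 (calcyclin), a ligand of the calcyclin-binding protein CACYBP, was the most abundant S100 transcript per length in A375. Its FPKM was 648 with siNC and 743 with siLINC01291, which placed it at ranks 27 and 22 of all genes. In SK-MEL-28 it was at 40.5 and 49.5, a log2 difference of -3.79 (SE 0.09, edgeR adjusted p = 7.23e-07). Per length, S100A6 exceeded S100B 187-fold and 130.5-fold in the A375 libraries, whereas its ratio to S100B was 0.414 and 0.515 in SK-MEL-28, so the order of this pair was opposite in the lines.

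The neighbours S100A16, S100A2 and S100A3 were lower in SK-MEL-28 as well. S100A16 was at 113 and 123 FPKM in A375 and at 7.18 and 5.85 in SK-MEL-28 (log2 difference -4.02, SE 0.13, edgeR adjusted p = 1.83e-06). S100A2, found mostly in epithelia and known as a p53 target, was at 21.8 and 20.3 in A375 and at 0.790 and 0.835 in SK-MEL-28 (-4.53, SE 0.16, edgeR adjusted p = 2.135e-06). S100A3, best known from the hair cuticle, was at 7.22 and 10.4 in A375 and at 0.161 and 0.364 in SK-MEL-28 (-4.89, SE 0.27, edgeR adjusted p = 1.27e-05). The SK-MEL-28 values of S100A3 rest on 4 and 9 counts, close to a floor of 3 counts. S100A5, which lies between S100A6 and S100A4, had 30 and 48 counts in A375 and 0 and 4 in SK-MEL-28.

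The annexin partners S100A10 and S100A11 were high in both lines. S100A10, the subunit that pairs with annexin A2 (ANXA2) and no longer binds calcium, was at 412 and 409.96 FPKM in A375 and at 166 and 145 in SK-MEL-28 (log2 difference -1.24, SE 0.09, edgeR adjusted p = 3.27e-05). S100A11, a partner of annexin A1, was the highest of the 10 genes in SK-MEL-28, at 338 FPKM with siNC and 365 with siLINC01291. In A375 it was at 378 and 395, and its rank among all genes lay between 50 and 56 in all 4 libraries. The log2 difference between the lines was 0.03 (SE 0.08, edgeR adjusted p = 0.772), and its sign changed with the scaling. S100A13, which takes part in the release of FGF1, was at 2.99 and 3.36 FPKM in A375 and at 2.51 and 2.90 in SK-MEL-28 (-0.07, SE 0.15, edgeR adjusted p = 0.702).

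By mean FPKM the order in A375 was S100A6, S100A10, S100A11, S100A4, S100A16, S100A2, S100A3, S100B, S100A13 and S100A1, and the ranges of neighbours over the 2 siRNA arms did not overlap. In SK-MEL-28 the order was S100A11, S100A10, S100B, S100A6, S100A16, S100A13, S100A4, S100A1, S100A2 and S100A3. There, only S100A13 and S100A4 overlapped as neighbours. These ranges come from 1 library per siRNA and give no replicate spread.

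On chromosome 1, the strongly lower genes were next to each other. The 5 genes S100A6, S100A4, S100A3, S100A2 and S100A16 fall within 78547 bases, and S100A13, which did not differ, begins 5641 bases beyond S100A16. Among all tested genes within 1000000 bases of the 9 genes, 51 were not S100 genes, and 35 of them (68.6%) were called lower in SK-MEL-28, compared with 36.3% over all genes. Their median log2 difference was -0.53. Of these 51, 3 were called and at least 10-fold lower, near the share of 5.95% over all genes: the skin barrier gene FLG (-4.71), the antisense gene FLG-AS1 (-3.98) and BX470102.1 (-3.66), an antisense transcript beside S100A6 that is uncertain without strand. Not all neighbours were lower: the fatty acid transport gene SLC27A3 stood at 3.26, and the cornified envelope gene LCE2A was at 0.0528 and 0 FPKM in A375 and at 4.05 and 2.67 in SK-MEL-28. FLG-AS1, FLG, BX470102.1, GABPB2, SLC39A1, AL358472.4 and S100A5 reached 1 FPKM only in A375, as did S100A2 and S100A3. LCE2A, SPRR2D and S100A1 did so only in SK-MEL-28. Each of these was tested only through the line where it is high. FLG-AS1, FLG, BX470102.1, GABPB2 and SLC39A1 are among the 35 called lower. Of 10 tested S100A genes in the window, S100A5 included, 7 were lower and 6 at least 10-fold so. DNA copy number was not measured here, and its part in these differences was not tested.

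**Figure D2:**
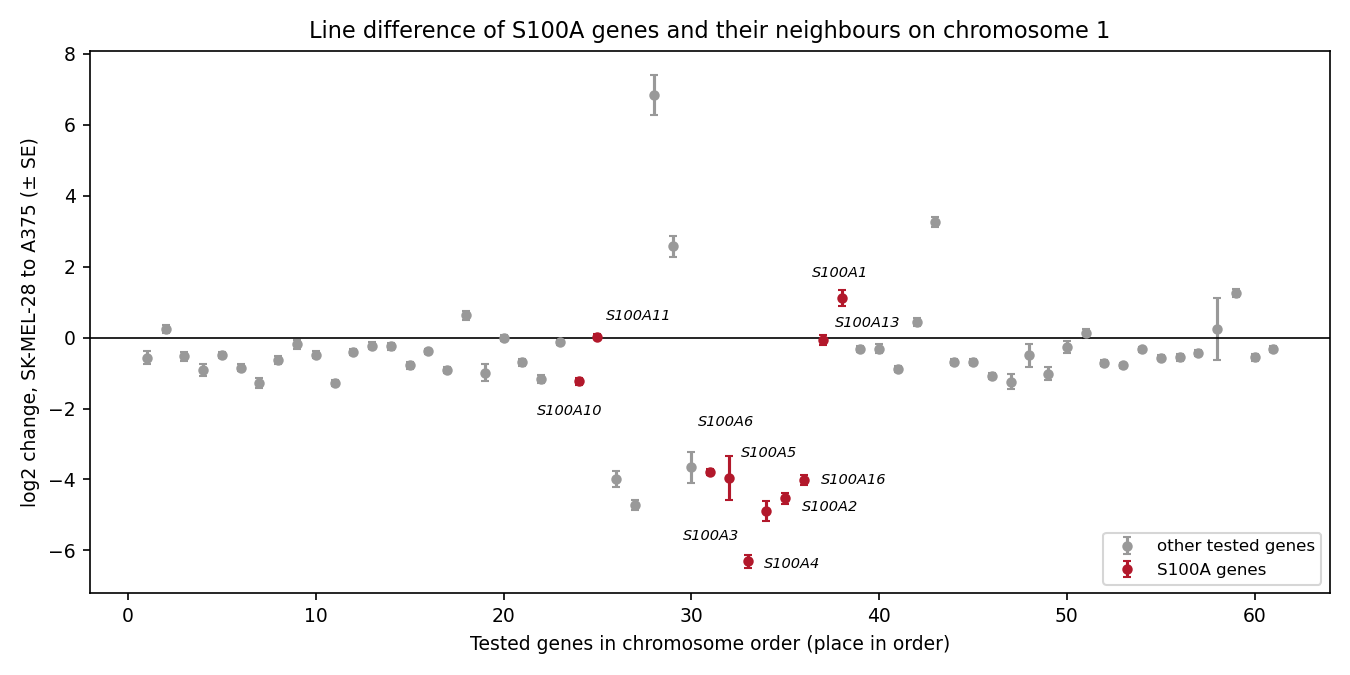
Log2 difference between SK-MEL-28 and A375 with its SE (vertical axis, edgeR) for the 61 tested genes within 1000000 bases of the chromosome 1 S100 genes, by place in chromosome order; red points are S100A genes and grey points all others. The run from S100A6 to S100A16 lies between -6.31 and -3.79, S100A11 and S100A13 lie near 0, and the median of the 51 grey genes is -0.53.

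The start regions of these neighbours differ in base composition, and 5 are shown. They set the strongly lower genes, except S100A16, beside S100A11, which did not differ. The RefSeq table of promoters on GRCh38.p14, from 250 bases before to 50 after each start, held 9 of the 10 genes. Letters are 5′ to 3′ on the gene's strand, and capitals mark either the core letters of a promoter's classic box, TATAAA, or the AP-1 consensus TGANTCA, both searched on both strands. All 5 are on the minus strand: S100A4 at chr1:153545757-153546056, S100A3 at chr1:153549209-153549508, the first listed start of S100A2 at chr1:153565795-153566094, S100A6 at chr1:153535942-153536241 and S100A11 at chr1:152036955-152037254.
S100A4: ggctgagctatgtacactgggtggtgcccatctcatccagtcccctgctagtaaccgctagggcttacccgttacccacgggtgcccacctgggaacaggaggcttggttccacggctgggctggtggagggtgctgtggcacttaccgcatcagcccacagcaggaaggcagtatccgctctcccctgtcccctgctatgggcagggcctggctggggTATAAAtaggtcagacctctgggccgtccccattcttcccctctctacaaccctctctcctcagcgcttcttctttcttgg
S100A3: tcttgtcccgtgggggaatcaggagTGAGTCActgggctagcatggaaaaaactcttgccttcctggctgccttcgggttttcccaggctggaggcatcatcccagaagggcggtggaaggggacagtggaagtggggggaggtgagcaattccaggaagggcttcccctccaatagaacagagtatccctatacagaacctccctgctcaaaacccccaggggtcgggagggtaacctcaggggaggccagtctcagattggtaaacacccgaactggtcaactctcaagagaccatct
S100A2: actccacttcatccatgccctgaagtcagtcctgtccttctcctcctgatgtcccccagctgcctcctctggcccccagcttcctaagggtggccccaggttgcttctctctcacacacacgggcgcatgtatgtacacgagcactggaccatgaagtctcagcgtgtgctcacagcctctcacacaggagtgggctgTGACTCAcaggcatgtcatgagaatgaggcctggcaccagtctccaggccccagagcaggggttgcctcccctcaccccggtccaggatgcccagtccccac
S100A6: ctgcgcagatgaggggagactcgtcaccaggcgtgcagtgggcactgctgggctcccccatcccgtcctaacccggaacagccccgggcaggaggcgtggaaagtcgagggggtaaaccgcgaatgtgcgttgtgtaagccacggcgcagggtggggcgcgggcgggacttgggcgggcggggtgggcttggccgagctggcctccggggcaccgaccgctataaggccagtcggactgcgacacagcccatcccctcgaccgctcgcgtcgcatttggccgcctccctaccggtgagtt
S100A11: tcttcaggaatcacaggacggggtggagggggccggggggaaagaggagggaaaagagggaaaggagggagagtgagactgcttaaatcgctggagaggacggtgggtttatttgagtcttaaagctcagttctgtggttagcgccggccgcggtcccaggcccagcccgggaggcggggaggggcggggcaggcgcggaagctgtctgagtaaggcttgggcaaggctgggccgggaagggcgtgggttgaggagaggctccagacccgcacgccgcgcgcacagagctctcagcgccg

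In S100A4, TATAAA begins 31 bases before the start. The AP-1 letters begin 52 bases before the start in S100A2 and 225 before it in S100A3. TATAAA also begins 29 bases before the second listed start of S100A13, which did not differ between the lines. Over all 34796 distinct promoters, 11.6% held TATAAA and 7.73% TGANTCA. The windows of S100A6, S100A11, S100A10 and S100A1 held neither, and nor did those of both listed starts of S100A16. The second listed start of S100A2 and the other listed starts of S100A13 also held neither. CG pairs, the sites of DNA methylation, numbered 31 in the window of S100A6, 22 in S100A11 and 32 in S100A10, against a median of 14 over all promoters. There were 8 in S100A4, 5 in S100A3, 5 in S100A2 and 3 at the first listed start of S100A16. The window of S100A1 held 6, and those of the 3 listed starts of S100A13 held 19, 11 and 12. A match of letters is a description of the reference sequence, and neither methylation nor factor binding was measured here.

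With siLINC01291, no S100 gene passed the test over both lines. With the lines as blocks, edgeR called 0 of the 10 genes, and 0.896% of all genes (121 of 13501). DESeq2 called 0 of the 10 as well, and 302 of the 13501 genes. Both limma fits called 0 of all genes, so their 0 of the 10 says nothing about these genes. In edgeR, 2 of the 10 genes, S100A3 and S100A6, had an unadjusted p under 0.05, beside 2282 of all 13501 genes tested. The median log2 change of the 10 genes was 0.17, against 0.01 over all genes tested. The fit has 1 residual degree of freedom, and a p that misses the threshold does not show that a gene was unaffected.

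S100A6 was higher with siLINC01291 in both lines. Its normalised CPM (counts over the TMM-scaled library total) went from 604 to 673.5 in A375 and from 42.1 to 50.6 in SK-MEL-28, ratios of 1.11 (95% counting interval 1.09 to 1.14) and 1.20 (1.11 to 1.30). The joint log2 change was 0.21 (SE 0.08, edgeR adjusted p = 0.265), so it did not pass. For S100A3, the joint value was 0.55 (SE 0.22, edgeR adjusted p = 0.279). Its counts were 188 with siNC and 280 with siLINC01291 in A375 (ratio 1.41, interval 1.16 to 1.70). In SK-MEL-28, with 4 and 9 counts, the interval of the ratio ran from 0.617 to 9.83.

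S100B and S100A4 had higher ratios in A375 than in SK-MEL-28. S100B had 194 counts with siNC and 328 with siLINC01291 in A375, a ratio of 1.60 (interval 1.33 to 1.92), and 5204 and 5109 counts in SK-MEL-28, a ratio of 0.965 (0.928 to 1.00). Among S100 genes that reached 1 FPKM in a library of the line, it alone was at least 1.5-fold different: 1 of 9 genes in A375, where 7.9% of all such genes were, and 0 of 8 in SK-MEL-28, where 11.4% were. S100A3 in SK-MEL-28, below that level, had a ratio of 2.21. The melanocyte marker SOX10 was also higher with siLINC01291, in A375 (80.1 to 118 FPKM) and in SK-MEL-28 (126.7 to 146.5). In A375, PMEL (1.64 to 2.13) and DCT (0.390 to 0.486) were higher too. MITF (5.68 to 5.475), MLANA (0.830 to 0.774) and TYR (0.112 to 0.0846) were lower there. In SK-MEL-28, where S100B had a ratio of 0.965, MITF (60.6 to 75.8) and PMEL (804 to 1043) were higher by FPKM. MLANA (286 to 321), TYR (77.6 to 88.2) and DCT (163.4 to 164.2) were higher in that line as well. The part of these markers in the value of S100B was not tested. S100A4 went from 5212 to 7443 counts in A375, a ratio of 1.35 (interval 1.30 to 1.40), and from 72 to 59 in SK-MEL-28, a ratio of 0.805 (0.561 to 1.15). Joint log2 changes were 0.23 for S100B (SE 0.17, edgeR adjusted p = 0.544) and 0.25 for S100A4 (SE 0.17, edgeR adjusted p = 0.501). With 1 library per group, the difference between the lines in this response was not tested.

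S100A16 had ratios of 1.06 in A375 (interval 1.02 to 1.09) and 0.800 in SK-MEL-28 (0.683 to 0.936). The ratios of S100A10 were 0.967 (0.944 to 0.991) and 0.856 (0.821 to 0.891), both below 1. S100A11 stayed near its control level, at 1.02 (0.985 to 1.05) and 1.06 (1.02 to 1.09). S100A13 was at 1.10 (0.905 to 1.33) and 1.13 (0.914 to 1.41), S100A2 at 0.906 (0.830 to 0.989) and 1.04 (0.640 to 1.68), and S100A1 at 0.848 (0.592 to 1.21) and 1.41 (1.09 to 1.85). The interval, which covers counting error only, left out a ratio of 1 for 7 of the 10 genes in A375 and for 5 in SK-MEL-28. Signs were opposite in the lines for 5 genes, upward in both for 4 and downward in both for S100A10. Neither the intervals nor the signs were counted over all genes, so these counts only describe the 10 genes. Joint edgeR adjusted p lay between 0.265 for S100A6 and 0.801 for S100A11.

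**Figure D3:**
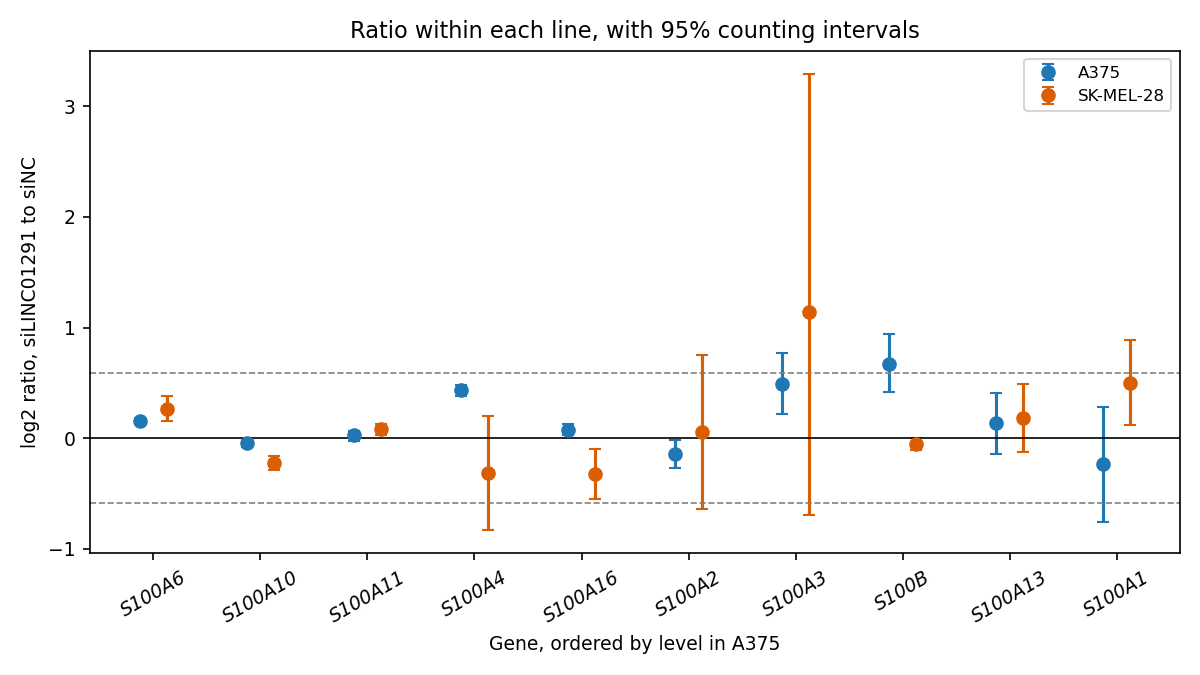
Log2 ratio of siLINC01291 to siNC (vertical axis, TMM-scaled counts with no prior count) for each S100 gene in A375 (blue) and SK-MEL-28 (orange); bars are exact 95% intervals for counting error in 1 library per group, and dashed lines mark 1.5-fold. S100B in A375 and S100A3 in SK-MEL-28 are above the upper line. The point of S100A3 in SK-MEL-28, with 4 and 9 counts, has the widest interval (0.617 to 9.83 as a ratio).

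Among genes for proteins that S100 proteins bind, MYH9 and ANXA2 fell. Of 24 listed partner genes, 22 were tested; 2 fell with siLINC01291 and 0 rose, where 0.896% of all genes were called. Like the list of other EF-hand genes below, the partner list was chosen with earlier results of these data known. Its counts therefore only describe the listed genes. Both limma fits and the fit without the block called 0 of all genes, so these 2 calls are lost there. MYH9, the non-muscle myosin heavy chain bound by S100A4, was at 97.1 FPKM with siNC and 45.7 with siLINC01291 in A375 and at 79.4 and 41.9 in SK-MEL-28. It fell by 1.04 on the log2 scale (SE 0.08, edgeR adjusted p = 0.0129). ANXA2, the partner of S100A10, went from 104 to 73.3 FPKM in A375 and from 87.0 to 45.9 in SK-MEL-28. It fell by 0.75 (SE 0.11, edgeR adjusted p = 0.0468). Neither the MYH9-binding S100A4 nor the ANXA2-binding S100A10 passed the same test. Other partners, none of which passed for the siRNA, were annexin A6 (ANXA6, 0.41), the kinase STK38 (0.40), the innate immune receptor TLR4 (-0.49) and the capping protein subunit CAPZA1 (-0.32). The median of the 22 was -0.12, against 0.01 over all genes.

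Between the lines, 10 of the 22 partners were higher and 9 lower in SK-MEL-28, where 36.1% and 36.3% of all genes were. TLR4, IL1A and AGER, all among the lower genes, reached 1 FPKM only in A375, so they were tested only through the line where they are high. ANXA1 was at 217 and 199.5 FPKM in A375 and at 32.9 and 25.04 in SK-MEL-28 (log2 difference -2.69, SE 0.09, edgeR adjusted p = 2.18e-06). The log2 difference was -5.73 for TLR4, -1.16 for MDM2, the p53 ligase, and -0.30 for ANXA2. It was 1.94 for the myosin chain MYH10, 1.35 for ANXA5 and 0.80 for AHNAK, the large scaffold bound by S100A10 with annexin A2. All 6 passed the test. The receptor AGER was scarce in all libraries, between 0.721 and 1.48 FPKM.

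Of 23 other EF-hand genes, all tested, 0 changed with siLINC01291 by the test, and the median log2 change was -0.04. Among those with at least 5 FPKM in a library, the largest value was that of the calmodulin gene CALM2 (-0.53, SE 0.09, edgeR adjusted p = 0.0598), followed by the calcineurin subunit PPP3R1 (-0.22) and the reticulocalbin RCN1 (-0.19). Between the lines, 12 were higher and 4 lower in SK-MEL-28, against 36.1% and 36.3% of all genes. GCA, among the higher genes, reached 1 FPKM only in SK-MEL-28, so it was tested only through the line where it is high. The median log2 difference was 0.26 (-0.02 over all genes) and the median absolute difference 0.49 (0.68). Among those that reached 5 FPKM in a library, the largest differences were those of NUCB2 (1.60), CALU (1.37) and CIB1 (1.37), all called higher. Of the other S100 family genes looked for, S100A5, S100P and the S100P-binding protein gene S100PBP were listed. S100P was at 9.05 and 8.51 FPKM in A375 and at 4.03 and 2.89 in SK-MEL-28 (log2 difference -1.19, SE 0.21, edgeR adjusted p = 0.00217). S100PBP did not differ by the test in either comparison (edgeR adjusted p = 0.811 for the siRNA and 0.483 for the line).

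The annotated 3' ends of the S100 transcripts were also searched for CTATGAA and TCTATGA, words that had been picked earlier on these same libraries. None of the 10 genes held either word in any 3' UTR, compared with 17.3% of 10931 tested genes that have one. The longest 3' UTR of the S100 genes had a median of 260 bases, against 1385 over all genes, so there was less sequence to hold a word. MYH9 and ANXA2 each held at least 1 of the words, and CALM2 held neither.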

How the data were processed

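Per the labels' protocols, oligo(dT)-selected RNA was sequenced on an Illumina machine, and reads were cleaned with fastp, which also removed duplicate sequences, freed of ribosomal RNA, aligned with HISAT2 and counted with HTSeq over known genes merged with StringTie assemblies. The submitters' processing notes name hg19, DESeq2 and edgeR, giving no versions. The deposited counts are whole reads per gene. The CPM that the authors deposited divide counts by the library total, and their deposited FPKM also divide by 1 length per gene. Deposited TPM were not used. Library totals ranged from 29351240 to 31815336 counts.

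The test set was every gene reaching 1 FPKM in 2 or more libraries. edgeR 4.0.16 (R 4.3.3) fitted line and siRNA after TMM scaling, with quasi-likelihood tests and Benjamini-Hochberg adjustment at 0.05. The cell line pairs the libraries, since both siRNAs were used in each. Log2 ratios within a line used a prior count of 2. Ratios with exact binomial 95% intervals used none and cover counting error only. Alternatives were DESeq2 1.42.0, limma 3.58.1 on log2(FPKM + 1) and log2(FPKM + 0.1), other scalings and filters, and a fit without the block. The main edgeR fit, but none of the alternatives, was tested on simulated data. Python 3.11.15 and scipy 1.17.1 did the rest. Coordinates are from GENCODE 29 on GRCh38, as no annotation release is named in the labels.

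The members and the partner, EF-hand and marker lists were chosen with earlier results of these data known. Named were the members, LINC01291, the listed S100 family genes, up to 6 genes per list by largest log2 change among those reaching 5 FPKM in a library, the 3 genes nearest to S100B and to S100A4, and genes beside a member. AGER and S100PBP, and the ANXA2 line difference, were added after their values were seen.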

Additional observations from a re-analysis of the deposited data

Results flagged for a closer look

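S100A16 had opposite signs in the lines, each with a counting interval that leaves out no change. Its log2 ratio of siLINC01291 to siNC was 0.0777 in A375, from 5977 and 6684 counts, and -0.32 in SK-MEL-28, from 360 and 293 counts. With 1 library per group, the difference between these responses was not tested.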

How the results depend on the processing

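Both limma fits and the fit without the block called 0 of all genes for the siRNA. The number of S100 genes called was 0 for the siRNA in all 8 alternatives. Between the lines it was 8 in 6 of them and 7 in the other 2: DESeq2 did not call S100A1 (log2 difference 1.11, adjusted p = 0.0803), and a filter at 5 FPKM left S100A1 and S100A13 untested. S100A11, never called, changed sign with library totals (-0.14), that filter (-0.0115) and both limma fits (-0.14). Over all genes, the siRNA calls went from 121 to 384 with no filter, 32 at 5 FPKM, 302 with DESeq2 and 0 with limma, where 2023 and 1830 genes had an unadjusted p under 0.05 at pseudocounts of 1 and 0.1. Line calls went from 9772 to 6000 at 5 FPKM, where 7997 genes were tested. The split of line calls into higher and lower was 4877 and 4895, but 4109 and 5827 with library totals, and 4056 and 5787 or 3803 and 5466 with limma. At 2-fold in place of 1.5-fold within a line, 0 S100 genes, 266 genes in A375 and 404 in SK-MEL-28 passed.

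The pairing comes from the cell line. Without this replicate block, 0 genes were called for the siRNA (51 at an unadjusted p under 0.05), and the joint log2 change became -0.0228 for S100B and 0.0545 for S100A16, neither of them called in any fit. Leaving out a library was not possible, since each group has 1. Depth limits S100A3 and S100A2 in SK-MEL-28, at 4 to 38 counts.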
